A study of Mus musculus with 24 samples.

Results

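Messenger RNA of proximal tubules from uninjured mice was compared between males and females, gene by gene, on the autosomes. The comparison holds 6 of the 23 samples of the series, 3 males against 3 females, from 7 of the 24 deposited libraries, since male replicate 3 was sequenced as libraries 3 and 3B and these were added. All animals were FVB, an inbred strain, with no genetic modification given in the labels, and their age is not given there. The groups compared are sham males and sham females, marked in the labels as having no injury, and the other tubule groups are males and females after ischemic acute kidney injury. Tubules were freed by enzymatic digestion and picked by microdissection, and a parallel isolation of endothelial cells with CD31 microbeads from the same design is used here only for contrast. The labels describe RNA from 3 mice of each sex per group, so replicates are taken as separate mice. Members are the 17743 autosomal genes that passed the low-count filter, of 49610 autosomal genes in the files, and a gene is called when edgeR's quasi-likelihood test with Benjamini-Hochberg adjustment over all genes tested gives an adjusted p under 0.05.

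The mouse proximal tubule reabsorbs most of the filtered glucose, amino acids, phosphate and protein, secretes organic anions and cations, and makes glucose and ammonia. It is a classical target of androgen, which acts through the androgen receptor of the tubule cell and induces transcripts such as Kap and Odc1, while prolactin and growth hormone signal there through receptors of the JAK2 and STAT5 pathway. Its segments S1, S2 and S3 run from the glomerulus towards the thin limb and carry different transporters. The androgen receptor gene itself lies on the X chromosome and is not among the members.

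The 5 samples sequenced once held 32592517 to 43213099 estimated reads, and libraries 3 and 3B held 21192147 and 21054285. Library 3 stood apart from the others, since CT010467.1 took 15.05% of its reads against 1.965% in library 3B and 0.7059 to 2.715% in the other sham tubule libraries. Female replicate 1 also stood apart. The Y-linked genes Ddx3y and Eif2s3y, used here only to check the labels, had 54 and 37 reads in that library, against 0 and 1 in female replicate 2 and none in female replicate 3. The split was less clean for Y-linked Kdm5d and Uty, with 12, 3 and 9 reads and 131, 51 and 53 reads in females 1 to 3. Among the 18 called autosomal genes with a male mean of at least 100 CPM (read counts scaled by TMM library size) and a difference of over 16-fold, female replicate 1 held a median of 5.6% of the male mean (2.68 to 8.25%). The same median was 1.09% in female replicate 2 and 2.18% in female replicate 3, and 15 of the 18 genes were highest in replicate 1 among the females. Many counts below are therefore also given without female replicate 1 and without male replicate 3, which for the gene lists was chosen after seeing the data.

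Markers of the proximal tubule were high in every library. The 18 general markers summed to 33380 to 39990 CPM in males and 41040 to 45090 CPM in females, with 1 member called higher in males and 4 higher in females. Sums of segment markers differed between the sexes. The 8 S1 markers summed to 1593, 1992 and 3207 CPM in males and to 6480, 5430 and 5499 CPM in females, with 0 members called higher in males and 3 higher in females. The 10 S3 markers summed to 8893, 8780 and 8365 CPM in males and to 4223, 4419 and 4123 CPM in females, with 4 called higher in males and 0 in females. The 6 S2 markers summed to 6294 to 6601 CPM in males and 3990 to 4751 CPM in females, with 3 called higher in males and 1 in females. All 3 segment sums separated the sexes without overlap. Of the S3 list, the glucose transporter Slc5a1 and the water channel Aqp1 overlapped (log2 changes of -0.26 ± 0.15 and 0.19 ± 0.16 SE, adjusted p = 0.393 and 0.616), as did Slc22a7, given below. In bulk tubules, fewer cells of a segment and less RNA per cell cannot be told apart, and the part of segment content in the differences below was not tested.

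Markers of other nephron segments were present. Thick ascending limb markers summed to 3924, 2569 and 1860 CPM in males and 2282, 2664 and 2827 CPM in females, thin limb markers to 1103 to 1598 CPM in males and 1037 to 1155 CPM in females, and distal convoluted tubule markers to 543.5 to 1168 CPM in males and 1115 to 1492 CPM in females. Each of these lists overlapped between the sexes. In male replicates 1 and 2 the thick limb sum was above the S1 sum, but not in male replicate 3 or in any female. Principal cell markers of the collecting duct summed to 1369, 710.1 and 447.1 CPM in males and 432.7, 382.9 and 260.3 CPM in females, and intercalated cell markers to 600.7, 283.1 and 67.87 CPM in males and 147.9, 105.4 and 48.12 CPM in females. The principal cell sum was higher in every male than in any female, while the intercalated sums overlapped. Male replicate 1 was the highest in both collecting duct lists, and 1 of 9 principal and 0 of 9 intercalated markers were called. Their median log2 changes were 1.28 and 1.62, beside 0.02 over all autosomal genes. The 15 dendritic cell and MHC class II markers summed to 666.3, 341.4 and 478.9 CPM in males against 66.69, 115.7 and 80.91 CPM in females, with no overlap and 2 of 14 tested members called higher in males. Endothelial and macrophage sums overlapped between the sexes (180.0 to 295.8 CPM and 74.84 to 105.1 CPM over the 6 samples), and 6 of 8 mast cell markers had no read in any sham tubule library.

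**Figure D1:**
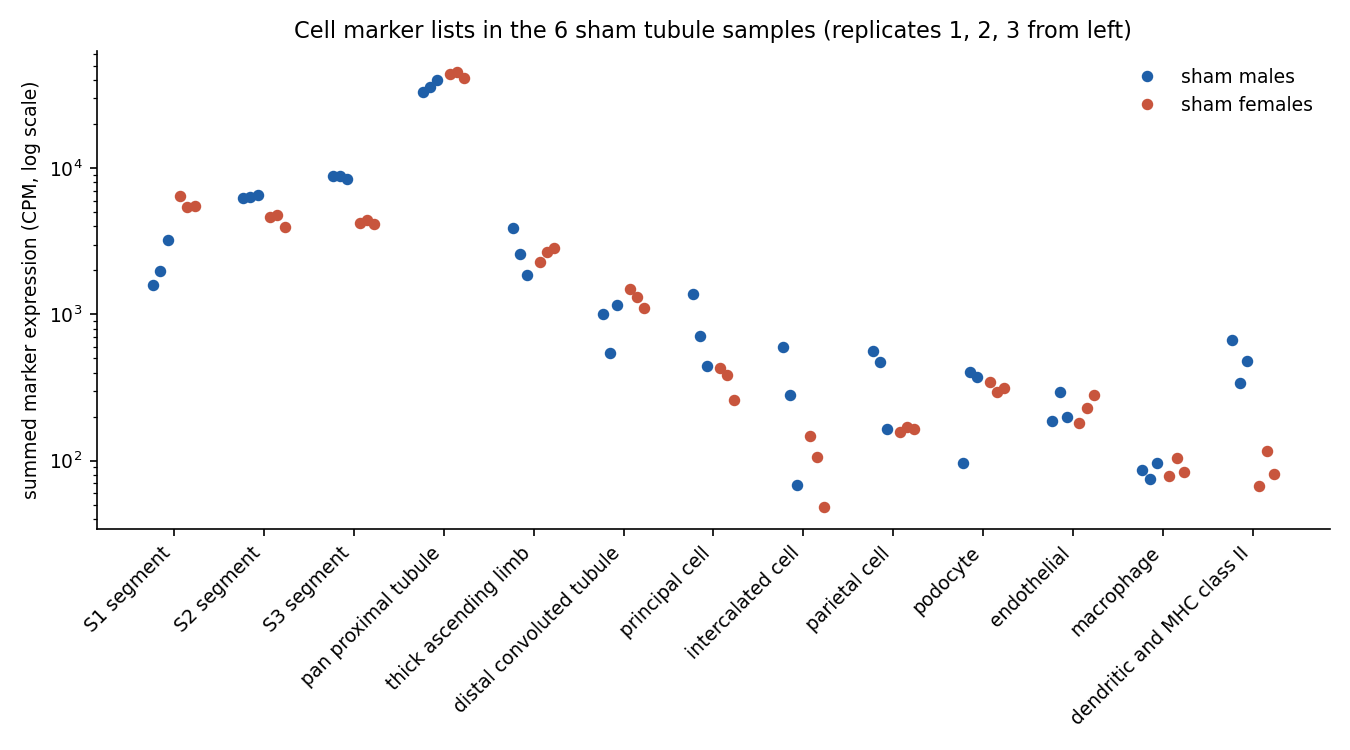
Summed CPM on a log scale of each marker list in the 6 sham tubule samples, males in blue and females in red, 1 point per sample. The S1 sum is lower and the S3 sum higher in all 3 males, while endothelial and macrophage sums overlap.

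In all, 575 autosomal genes (3.24% of those tested) were higher in males and 431 (2.43%) higher in females, 5.67% together. Of these 1006 genes, 885 are protein coding, and in 995 the male and female libraries did not overlap, against 29.8% of all autosomal genes tested. The differences were larger on the male side: 98 genes were at least 16-fold higher in males and 36 at least 16-fold higher in females, and the median log2 change of the called genes was 1.52 in males and -1.29 in females, beside 0.02 over all genes. Without female replicate 1 the test called 346 and 238 genes, and without male replicate 3 it called 668 and 407. Libraries outside the comparison mattered too, through the shared spread. With only the sham groups in the fit the calls were 878 and 752, and without injured male replicate 3 they were 1368 and 1151. The 2 sexes also differed in genes that were at 0: 41 genes called higher in males had no read in any female, and 3 called higher in females had none in any male. Taking 3 counts over the whole group as the floor, the largest such bounds were at least 524-fold for the interferon-induced GTPase gene Gvin1 in males and at least 58.9-fold for Cplx3 in females, both chosen after their values were seen.

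The most abundant male-type transcript was Kap, the kidney androgen-regulated protein (chromosome 6, 133849851 to 133853762, minus strand, GRCm38). It stood at 18460, 18730 and 15390 CPM in males 1 to 3 and at 1033, 349 and 1649 CPM in females 1 to 3. Every male was above every female, and relative to their mean the females differed more (1.753e+04 ± 1856 CPM in males and 1010 ± 650.5 CPM in females, SD, n = 3). The log2 change was 4.12 ± 0.73 SE (adjusted p = 0.00607, edgeR). Per unit of length Kap stood at 25710 TPM in males, against 6900 TPM of Gpx3, which encodes the secreted glutathione peroxidase of the tubule. Gpx3 went the other way, with 17970, 20100 and 21480 CPM in males and 32930, 30700 and 33700 CPM in females. Its change was small but clear of the spread, at -0.71 ± 0.13 SE (adjusted p = 0.00795).

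The genes with the smallest errors showed how tight the split could be. Slco3a1, an organic anion transporter, had 269.6, 288.2 and 257.1 CPM in males and 38.22, 30.28 and 36.40 CPM in females. The log2 change of 2.96 ± 0.13 SE had the lowest adjusted p of the named genes (7.83e-07). Chst11, a chondroitin sulfotransferase, had 149.9, 159.2 and 166.6 CPM in males and 8.966, 4.430 and 4.482 CPM in females (4.74 ± 0.28 SE, adjusted p = 4.5e-06). Cd36, the fatty acid translocase, had 835.8, 787.8 and 762.6 CPM in males and 51.14, 16.96 and 50.40 CPM in females (4.33 ± 0.40 SE, adjusted p = 0.000122). In none of these did the groups overlap.

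Large male differences took in Cyp2j13, Acsm3, Ces1f, Pzp, Ugt8a and Cyp2d9. These are enzymes of lipid, drug and acyl-CoA metabolism apart from Pzp, which encodes an alpha-macroglobulin protease inhibitor. Larger changes were those of Gvin1, given above, and Gstp3, a pi class glutathione transferase. Gstp3 had 14.44, 9.332 and 14.08 CPM in males and 0, 0.0711 and 0 CPM in females (8.74 ± 0.65 SE, adjusted p = 2.43e-05). The log2 change of Sorcs1 was 11.97 without female replicate 1 and 7.37 without male replicate 3. Cyp2j13 had 544.7, 543.0 and 537.3 CPM in males and 19.26, 0.237 and 0.467 CPM in females. Acsm3, a medium-chain acyl-CoA synthetase, had 631.2, 594.9 and 702.5 CPM in males and 35.28, 0.995 and 0.385 CPM in females. In both, female replicate 1 was far above the other females, and the log2 changes of 6.36 ± 1.53 SE and 5.72 ± 1.35 SE (adjusted p = 0.0319 and 0.0291) rose to 10.60 and 9.84 without it (adjusted p = 0.0027 and 0.000227). Slco1a1, an organic anion transporter named here after its values were seen, is a case where that library ended the call. It had 1130, 1034 and 1029 CPM in males and 48.2, 0.0474 and 0.11 CPM in females, with an adjusted p of 0.0914 over all samples and of 0.00203 without female replicate 1.

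Of the other genes in this group, Apoh, which encodes a phospholipid-binding plasma glycoprotein, had a log2 change of 6.36 ± 0.82 SE and Eddm3b, an epididymal protein gene, one of 5.54 ± 0.88 SE (adjusted p = 0.000872 and 0.0033). Col19a1, a collagen chain, and Tmprss9, a membrane serine protease, were low in males at 5.966 to 8.808 CPM and 5.309 to 10.19 CPM. Their females were at or under 0.309 and 0.545 CPM, so the groups did not overlap, as the naming rule required. Tmprss9 and Gm47995 passed the threshold (adjusted p = 0.0182 and 0.0278) but not without female replicate 1 (adjusted p = 0.0579 and 0.0901).

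Among female-type transcripts, Ugt1a2, a UDP-glucuronosyltransferase, spanned the widest range, with 2.364, 0.952 and 5.738 CPM in males and 2901, 2783 and 1494 CPM in females. Cpn1, the catalytic subunit of carboxypeptidase N, had 0.941, 0.809 and 0.455 CPM in males and 12.58, 13.03 and 12.65 CPM in females (-4.11 ± 0.62 SE, adjusted p = 0.00226). Neither gene overlapped between the sexes, which the rule for naming the largest changes required. Scd1, the stearoyl-CoA desaturase, was widely spread in both sexes, with 7.220, 11.64 and 2.604 CPM in males and 65.95, 84.44 and 257.0 CPM in females. Its log2 change of -4.25 ± 0.93 SE (adjusted p = 0.02) did not pass without male replicate 3 (adjusted p = 0.0581).

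**Figure D2:**
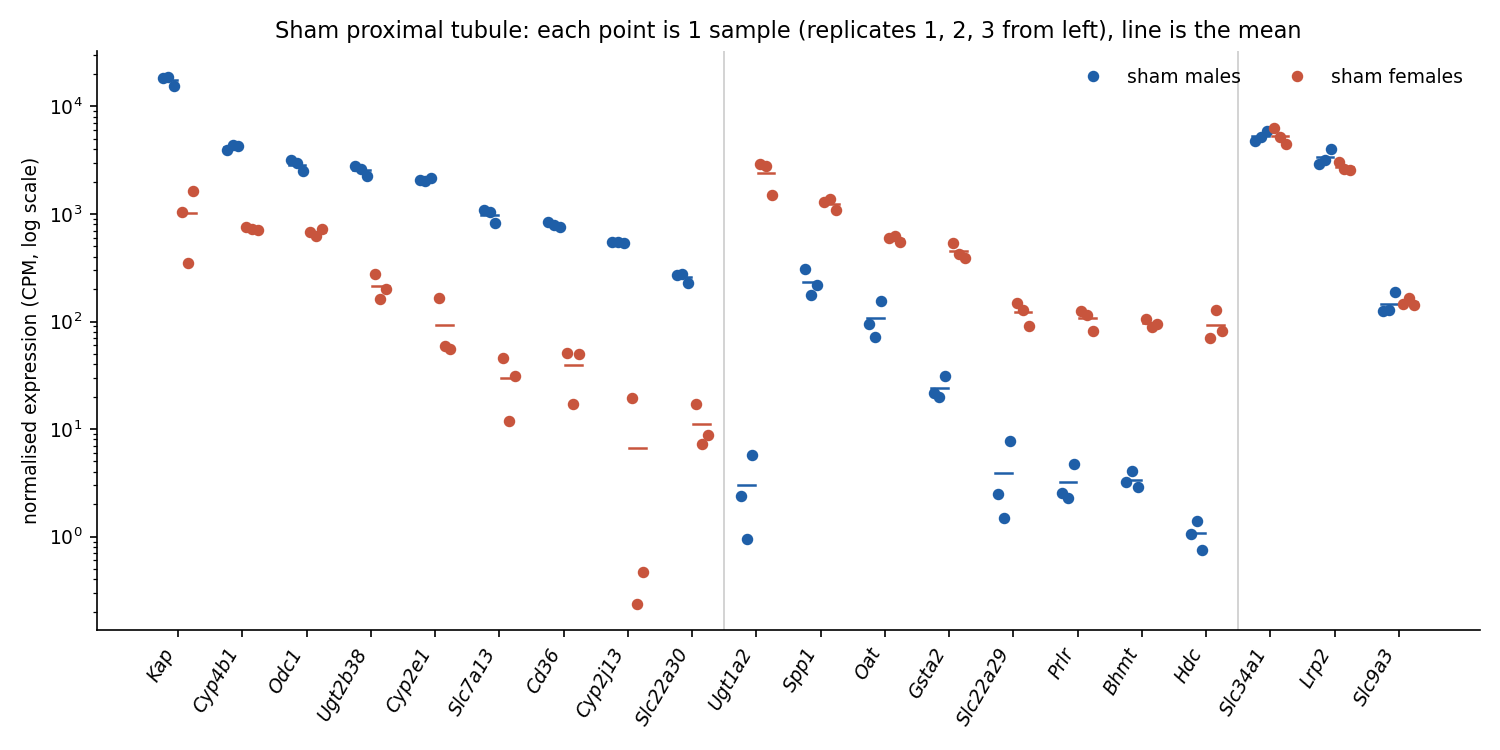
CPM on a log scale of male-type genes (left), female-type genes (middle) and genes not called (right), 1 point per sample with the group mean as a line. Cyp2j13 shows female replicate 1 at 19.26 CPM against 0.237 and 0.467 CPM in the other females, and Slc34a1, Lrp2 and Slc9a3 overlap.

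Among 25 tested genes of sex hormone and growth hormone signalling, 1 was higher in males and 2 in females (median log2 change 0.305). Esr1, which encodes estrogen receptor alpha, had 21.10, 25.54 and 21.06 CPM in males and 5.442, 4.786 and 4.262 CPM in females. Every male was above every female (2.22 ± 0.27 SE, adjusted p = 0.000549). Prlr, the prolactin receptor, had 2.568, 2.285 and 4.752 CPM in males against 126.5, 115.8 and 81.63 CPM in females (-5.08 ± 0.69 SE, adjusted p = 0.0012). Per length these were low transcripts, at 1.918 TPM for Esr1 in males and 16.47 TPM for Prlr in females. Ncoa4, a ferritin-binding protein first described as an androgen receptor coactivator, had a change of -0.69 ± 0.15 SE (adjusted p = 0.0219, and 0.1 without female replicate 1).

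Ghr, the growth hormone receptor, was abundant in both sexes, with 981.5, 962.4 and 793.2 CPM in males and 555.9, 701.9 and 680.3 CPM in females. The groups did not overlap, but the log2 change of 0.50 ± 0.16 SE did not pass the test (adjusted p = 0.112). Stat5a and Stat5b, its signal transducers, did not pass either (log2 changes of 0.65 and 0.31, adjusted p = 0.106 and 0.257). Gusb, the glucuronidase known as an androgen-responsive enzyme of the mouse kidney, had 42.33, 38.09 and 36.40 CPM in males and 24.09, 23.36 and 19.16 CPM in females (0.81 ± 0.28 SE, adjusted p = 0.13). Of 35 other hormone receptors, 2 were higher in males and 2 in females, 11.4% together beside 5.67% over all autosomal genes (median 0.10). The bile acid receptor Nr1h4 (0.96 ± 0.18 SE, adjusted p = 0.00886) was among those higher in males. The xenobiotic receptor Nr1i2 (-2.90 ± 0.52 SE, adjusted p = 0.00706) was higher in females, as was Ahr, the dioxin receptor (-0.85 ± 0.21 SE, adjusted p = 0.0333), whose call was lost without either doubted library (adjusted p = 0.0824 and 0.0777).

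Of 34 steroid-metabolizing enzymes, 6 were higher in males and 2 in females (median 0.16), 23.5% together beside 5.67% over all autosomal genes. Akr1c14 and Akr1c21, hydroxysteroid dehydrogenases of the aldo-keto reductase family, were higher in males. Akr1c14 had 632.7, 542.3 and 548.4 CPM in males and 34.66, 2.369 and 22.35 CPM in females. Hsd17b11, a dehydrogenase that inactivates sex steroids at carbon 17, had 840.9, 780.2 and 827.9 CPM in males and 155.1, 145.4 and 128.2 CPM in females (2.51 ± 0.30 SE, adjusted p = 0.000499). Hsd11b1, which regenerates active glucocorticoid, had 26.01, 19.07 and 12.51 CPM in males and 1.886, 2.819 and 1.677 CPM in females (3.17 ± 0.51 SE, adjusted p = 0.00375). None of the genes given by sample overlapped between the sexes.

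Srd5a2, the steroid alpha-reductase that makes dihydrotestosterone, and Cyp7b1, the oxysterol hydroxylase, passed only just (adjusted p = 0.0469 and 0.0311), and neither did without female replicate 1 (adjusted p = 0.107 and 0.119), nor Srd5a2 without male replicate 3 (adjusted p = 0.096). Cyp7b1 had 12.94, 22.97 and 0.430 CPM in males and 0.247, 0.687 and 0 CPM in females, so male replicate 3 lay within the female range. On the female side, Hsd3b4, a ketosteroid reductase, had 187.5, 157.0 and 145.5 CPM in males and 301.3, 342.7 and 353.2 CPM in females (-1.02 ± 0.16 SE, adjusted p = 0.00279). Rdh16, a microsomal retinol dehydrogenase, differed by a like amount (-1.05 ± 0.16 SE, adjusted p = 0.00275).

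Of 43 cytochrome P450 genes tested, 9 were higher in males and 3 in females (median 0.14), 27.9% together beside 5.67% over all autosomal genes. The counts were 7 and 2 without female replicate 1 and 10 and 3 without male replicate 3. Cyp4b1, at 1304 TPM in males, had 3957, 4344 and 4306 CPM in males and 753.2, 723.7 and 706.0 CPM in females (2.53 ± 0.30 SE, adjusted p = 0.000507). Cyp2e1, which oxidizes ethanol, acetone and paracetamol, had 2059, 2046 and 2167 CPM in males and 164.2, 59.44 and 56.01 CPM in females (4.49 ± 0.47 SE, adjusted p = 0.000214). Both split the sexes, with female replicate 1 again the highest female for Cyp2e1. Cyp4a14, a fatty acid omega-hydroxylase, had 99.13, 39.95 and 113.5 CPM in males and 1168, 1995 and 1296 CPM in females, without overlap. Its log2 change of -4.14 ± 1.46 SE did not pass (adjusted p = 0.138). This SE came from a fit that also held the injured tubules. There, injured males 1 to 3 stood at 2.829, 5.234 and 486.7 CPM of Cyp4a14. The part of injured male replicate 3 in this SE was not tested. Cyp4a10 and Cyp2j5 did not pass either (adjusted p = 0.354 and 0.214). For Cyp4a10, injured male replicate 3 had 588.3 CPM against 66.88 and 63.62 CPM in the other injured males.

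Other oxidative and acyl enzymes gave 12 higher in males and 3 in females of 52 (median -0.06), 28.8% together beside 5.67% over all autosomal genes. Fmo5, a flavin monooxygenase, had 151.7, 151.5 and 88.80 CPM in males and 17.25, 16.94 and 14.46 CPM in females (3.01 ± 0.23 SE, adjusted p = 2.56e-05). Nudt19, a peroxisomal CoA diphosphatase prominent in mouse kidney, had 907.6, 857.4 and 853.5 CPM in males and 160.3, 162.6 and 171.3 CPM in females (2.40 ± 0.24 SE, adjusted p = 0.000194). Acot12, an acetyl-CoA thioesterase, and Ces2c, a carboxylesterase, were also higher in males (1.60 ± 0.16 and 2.48 ± 0.22 SE, adjusted p = 0.000201 and 8.78e-05). In all 4 the lowest male was above the highest female.

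The 2 branches of conjugation leaned in different directions. Of 20 glucuronidation genes, 7 were higher in males and 3 in females (median 0.65), and of 36 sulfation and glutathione genes, 4 were higher in males and 12 in females (median -0.30). The first pair of counts became 4 and 3 without female replicate 1 and 6 and 3 without male replicate 3. For the second it became 3 and 8, and 5 and 10. The difference between the lists was not tested.

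Gsta2, an alpha class glutathione transferase, led the female side with 21.51, 19.93 and 30.92 CPM in males and 536.9, 424.0 and 389.3 CPM in females (-4.22 ± 0.25 SE, adjusted p = 4.5e-06). Gsto1, the omega class enzyme, had 7.932, 4.785 and 9.429 CPM in males and 52.93, 49.97 and 48.89 CPM in females (-2.78 ± 0.32 SE, adjusted p = 0.000399). The other 10 were Gsta1, Gsta3, Gsta4, Gstm6, Gstm7, Gstk1, Gstt1, Gstt3, Mgst3 and Papss2, of which Gsta4, Gstt1, Gstt3 and Papss2 did not pass without female replicate 1 (adjusted p = 0.0949, 0.12, 0.152 and 0.129). Papss1 and Papss2, the synthases of the sulfate donor PAPS, went opposite ways. Papss1 had 214.8, 177.1 and 229.3 CPM in males and 87.93, 94.08 and 87.38 CPM in females (1.21 ± 0.12 SE, adjusted p = 0.000181), while Papss2 had 334.2, 345.8 and 412.6 CPM in males and 731.1, 695.6 and 574.5 CPM in females (-0.87 ± 0.22 SE, adjusted p = 0.0391). Ggt1, the brush border enzyme that cleaves glutathione, was higher in males, with 1853, 1879 and 1599 CPM against 825.2, 762.8 and 703.4 CPM in females (1.22 ± 0.19 SE, adjusted p = 0.00251). The glutathione transferase Gstp3, given above, was higher in males as well.

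Among 39 organic anion and cation transporters, 8 were higher in males and 5 in females (median 0.28), 33.3% beside 5.67% over all autosomal genes. The counts were 8 and 3 without female replicate 1 and 8 and 5 without male replicate 3. Slc22a6 and Slc22a8, the basolateral organic anion transporters OAT1 and OAT3, are neighbours on chromosome 19 (8618039 to 8628299 and 8591254 to 8611835, both plus strand) and went opposite ways. Slc22a6 had 1724, 1764 and 1995 CPM in males and 675.6, 810.3 and 607.6 CPM in females (1.39 ± 0.18 SE, adjusted p = 0.000872). Slc22a8 had 196.0, 249.1 and 447.0 CPM in males and 863.5, 797.3 and 623.6 CPM in females (-1.36 ± 0.29 SE, adjusted p = 0.0188, and 0.0712 without female replicate 1). Neither overlapped. Slc22a12, the apical urate exchanger, and Slc17a3, an apical anion and urate transporter, were higher in males (log2 changes of 1.00 and 1.09, adjusted p = 0.0238 and 0.0053), although Slc22a12 did not pass without female replicate 1 (adjusted p = 0.101). Slc22a7 overlapped between the sexes, with 12.66 to 39.28 CPM in males and 22.32 to 105.0 CPM in females.

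All 4 called ABC transporters, of 27 tested, were higher in females (median -0.001), 14.8% beside 5.67% over all autosomal genes. Abcb1b, a P-glycoprotein gene, had 7.678, 9.951 and 11.58 CPM in males and 61.53, 74.13 and 73.77 CPM in females (-2.84 ± 0.31 SE, adjusted p = 0.000271). Abcc4, an apical exporter of organic anions and cyclic nucleotides, had 18.74, 12.97 and 21.64 CPM in males and 93.03, 84.20 and 65.25 CPM in females (-2.18 ± 0.30 SE, adjusted p = 0.00121). The other P-glycoprotein gene, Abcb1a, had a log2 change of -2.36 ± 0.45 SE in counts (adjusted p = 0.00912), but its length-scaled level ran the other way, at 3.357 TPM in males and 2.669 TPM in females, and its change was 0.25 with effective length offsets (adjusted p = 0.942). Abca1, the cholesterol exporter, was at the threshold (-1.12 ± 0.30 SE, adjusted p = 0.049, and 0.0901 without female replicate 1).

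Many of these genes stand in clusters of paralogs. Over 15 such loci with 82 tested members, chosen after their values were seen, 22 members were called on the male side, 18 on the female side and 42 on neither, where 5.67% of all autosomal genes were called. Since the loci were chosen for their calls, nothing is read from these shares. Members went both ways in 7 loci, in 6 loci only male-higher members were called, and in 2 only female-higher ones. Reads of near-identical paralogs can be assigned to the wrong copy, and the Ugt1a genes share their last exons, so values of single members are uncertain.

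On chromosome 19 from 7673061 to 8628299 (GRCm38), 8 organic anion transporter genes were tested. Slc22a30 and Slc22a28 were higher in males, with 269.8, 277.0 and 226.3 CPM and 156.5, 145.3 and 115.1 CPM, against 17.19, 7.321 and 8.798 CPM and 12.09, 12.96 and 9.981 CPM in females (4.54 ± 0.53 and 3.57 ± 0.35 SE, adjusted p = 0.000471 and 0.000181). Slc22a29, which lies between them, was higher in females, with 1.5 to 7.786 CPM in males and 148.7, 129.1 and 90.84 CPM in females (-4.97 ± 0.59 SE, adjusted p = 0.000507). Slc22a27 was also higher in females (-4.08 ± 0.45 SE, adjusted p = 0.000327), and Slc22a19 and Slc22a26 did not pass. The promoter windows of the 3 neighbours that split by sex are shown because they are close relatives, from RefSeq (GRCm38.p6), 250 bases before to 50 after the start, minus strand at chr19:8405056-8405355, chr19:8131933-8132232 and chr19:8218851-8219150. Capitals mark bases not aligned to an identical base of the Slc22a30 window.
Slc22a30: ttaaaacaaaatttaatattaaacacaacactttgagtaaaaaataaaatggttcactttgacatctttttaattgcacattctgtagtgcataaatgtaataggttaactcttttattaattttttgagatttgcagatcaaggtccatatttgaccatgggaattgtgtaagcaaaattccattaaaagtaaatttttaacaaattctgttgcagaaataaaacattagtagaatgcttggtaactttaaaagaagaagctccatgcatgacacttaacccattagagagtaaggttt
Slc22a28: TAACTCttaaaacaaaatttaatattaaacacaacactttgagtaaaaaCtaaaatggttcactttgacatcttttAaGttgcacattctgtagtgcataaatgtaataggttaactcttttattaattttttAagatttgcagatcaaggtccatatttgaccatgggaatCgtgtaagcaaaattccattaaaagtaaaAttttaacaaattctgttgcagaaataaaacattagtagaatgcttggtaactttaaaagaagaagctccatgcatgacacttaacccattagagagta
Slc22a29: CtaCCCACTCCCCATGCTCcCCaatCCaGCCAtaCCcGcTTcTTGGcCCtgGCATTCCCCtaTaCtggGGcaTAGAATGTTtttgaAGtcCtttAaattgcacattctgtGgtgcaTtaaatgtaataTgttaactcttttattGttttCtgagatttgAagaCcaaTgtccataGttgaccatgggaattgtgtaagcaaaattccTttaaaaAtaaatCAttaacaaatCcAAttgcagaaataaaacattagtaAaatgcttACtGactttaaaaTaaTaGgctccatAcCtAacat
The male-type pair was identical at 98.0% of aligned bases. The female-type Slc22a29 window was identical to that of Slc22a30 at 77.1% and to that of Slc22a28 at 75.1% of aligned bases, and carried 88 capitals against 12 in Slc22a28, most of them in the first 100 bases. The window of Slc22a27 was identical to the 3 others at 41.7 to 44.4% of aligned bases.

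The alpha class glutathione transferases of chromosome 9 (78182774 to 78355788) were the reverse case, since all 4 tested members were higher in females, Gsta4 only with all samples. Gsta1 had 1.830, 1.214 and 1.643 CPM in males and 37.94, 26.70 and 28.76 CPM in females, and Gm10639, a predicted gene of the same cluster, had 3.178, 1.571 and 3.135 CPM in males and 85.00, 43.95 and 35.77 CPM in females. Both were clear of overlap (-4.32 ± 0.77 and -4.38 ± 0.50 SE, adjusted p = 0.00659 and 0.0004). Their promoter windows, plus strand at chr9:78230419-78230718 and chr9:78289678-78289977 of the same source, are shown because they were identical at 97.9% of aligned bases. Capitals mark a match to TTCNNNGAA, the element of STAT5 and BCL6, searched on both strands.
Gsta1: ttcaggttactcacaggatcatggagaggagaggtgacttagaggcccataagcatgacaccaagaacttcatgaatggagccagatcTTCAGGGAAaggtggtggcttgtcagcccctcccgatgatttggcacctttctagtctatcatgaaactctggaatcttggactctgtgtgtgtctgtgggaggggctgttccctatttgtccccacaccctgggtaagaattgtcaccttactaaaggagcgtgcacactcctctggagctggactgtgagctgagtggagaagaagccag
Gm10639: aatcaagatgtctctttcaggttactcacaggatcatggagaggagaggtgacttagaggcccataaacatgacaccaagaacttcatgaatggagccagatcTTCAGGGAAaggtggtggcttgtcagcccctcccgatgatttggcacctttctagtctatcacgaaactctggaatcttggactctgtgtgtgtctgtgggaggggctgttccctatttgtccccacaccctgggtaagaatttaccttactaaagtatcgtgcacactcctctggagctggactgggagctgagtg
The window of Gsta2, the other strongly female-type member, held no match, and that of the male-type Cyp4b1 held 1. The element was in 7.06% of the 11693 windows matched to tested autosomal genes. Windows were matched to 393 of the 575 male-type and 297 of the 431 female-type genes, fewer than 80% of each, so shares of motifs over the called genes are void and are not given. The 7.06% has the same limit, since windows were matched to 65.9% of all tested autosomal genes. A part of this element in the differences was not tested, and nothing is read from the single matches.

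In the Ugt2 cluster of chromosome 5 (86889767 to 87424203), Ugt2b37 and Ugt2b38 were higher in males and Ugt2b34 in females. Ugt2b38 had 2787, 2608 and 2253 CPM in males and 278.6, 161.7 and 200.4 CPM in females (3.58 ± 0.27 SE, adjusted p = 3.06e-05). Ugt2b34 had 1.932, 1.476 and 2.831 CPM in males and 50.06, 35.47 and 42.15 CPM in females (-4.35 ± 0.49 SE, adjusted p = 0.000358). The promoter windows of the male-type pair were identical at 95.5% of aligned bases, and each matched the Ugt2b34 window at 47.9 and 47.1%. In the Ugt1a cluster of chromosome 1, Ugt1a1 and Ugt1a2 were higher in females, Ugt1a9 and Ugt1a6b higher in males and 5 did not pass, and Ugt1a6b lost its call without female replicate 1 (adjusted p = 0.0838). In the Akr1c cluster of chromosome 13, Akr1c14 and Akr1c21 were higher in males, and Akr1c20 (-4.74 ± 0.46 SE, adjusted p = 0.000151) and Akr1c19 higher in females. In the Cyp2d cluster of chromosome 15, Cyp2d9, a steroid hydroxylase known from male mouse liver, had 300.3, 270.1 and 98.23 CPM in males and 5.967, 1.327 and 1.210 CPM in females (6.31 ± 0.83 SE, adjusted p = 0.000993), while Cyp2d26 and Cyp2d22 were higher in females.

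**Figure D3:**
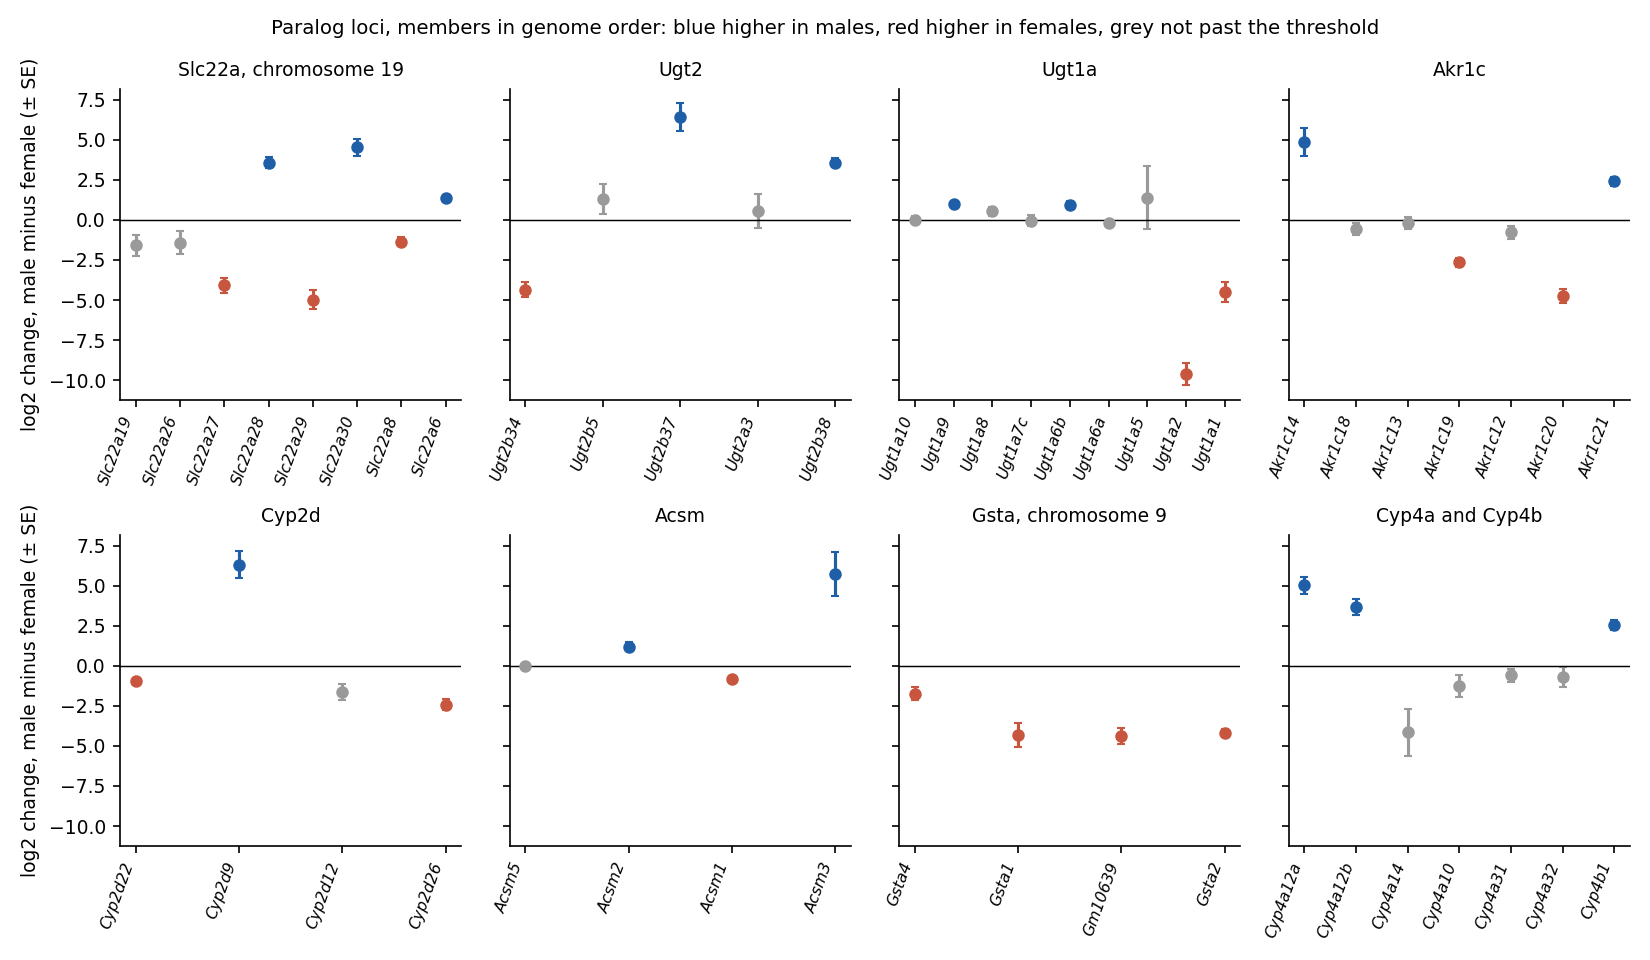
Log2 change, male minus female, with SE for each tested member of 8 paralog clusters in genome order, in blue where higher in males, red where higher in females and grey where not past the threshold. Members of the chromosome 19 Slc22a cluster alternate between the sexes, and all 4 Gsta members lie below 0.

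Amino acid transporters gave 3 higher in males and 5 in females of 37 tested (median 0.18), and 3 and 2 without female replicate 1. With all samples 21.6% of the list was called, beside 5.67% over all autosomal genes. Slc7a13, the apical cystine and acidic amino acid carrier of S3, had 1085, 1044 and 821.9 CPM in males and 46.01, 11.78 and 31.48 CPM in females (5.05 ± 0.58 SE, adjusted p = 0.000408). Slc1a4, a neutral amino acid carrier, was also higher in males (2.20 ± 0.38 SE, adjusted p = 0.00562), as was Slc6a15. The 5 on the female side were Slc3a2, Slc7a7, Slc7a8, Slc7a9 and Slc16a10. Slc3a2, the heavy chain, had 176.1, 179.4 and 223.9 CPM in males and 440.3, 392.2 and 432.4 CPM in females (-1.13 ± 0.13 SE, adjusted p = 0.000471). Its light chains Slc7a8 and Slc7a7 had changes of -1.95 and -1.32, Slc7a9 one of -0.91 and the aromatic amino acid carrier Slc16a10 one of -1.19. Without female replicate 1, Slc7a7, Slc7a9 and Slc16a10 did not pass (adjusted p = 0.0612, 0.0875 and 0.124).

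Of 63 genes of salt, phosphate, acid-base and water transport, 1 was higher in males and 4 in females, 7.9% together beside 5.67% over all autosomal genes (median -0.05, 3 and 10 calls without male replicate 3). Slc34a3, a sodium phosphate cotransporter, had 17.52, 14.57 and 38.93 CPM in males and 103.2, 93.66 and 99.09 CPM in females (-2.06 ± 0.34 SE, adjusted p = 0.00457). The main phosphate carrier Slc34a1 overlapped, with 4818 to 5848 CPM in males and 4486 to 6276 CPM in females (adjusted p = 0.999). The sodium-proton exchanger Slc9a3 overlapped as well (-0.05 ± 0.17 SE, adjusted p = 0.934), and so did the endocytic receptor Lrp2 (0.31 ± 0.22 SE, adjusted p = 0.502). Slc5a8, a lactate and monocarboxylate carrier, was higher in males (1.63 ± 0.23 SE, adjusted p = 0.00134), and Car2, a carbonic anhydrase, higher in females (-1.02 ± 0.19 SE, adjusted p = 0.00761).

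Of 36 genes of glucose transport and gluconeogenesis, 1 was higher in males and 3 in females, 11.1% together beside 5.67% over all autosomal genes (median -0.21). Pck1, the cytosolic PEP carboxykinase, had 2939, 2613 and 2830 CPM in males and 5129, 6701 and 6303 CPM in females (-1.11 ± 0.21 SE, adjusted p = 0.00948). The glucose transporter Slc5a2, which marks S1, and G6pc, the glucose phosphatase, went the same way (-1.20 ± 0.24 and -1.24 ± 0.26 SE, adjusted p = 0.0134 and 0.0153), but G6pc did not pass without female replicate 1 (adjusted p = 0.0527). Akr1b3, the aldose reductase, was higher in males (1.46 ± 0.15 SE, adjusted p = 0.000214). No sham sample of either sex overlapped the other in these 4 genes.

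Fatty acid oxidation was split, with 7 of 51 genes called on the male side and 6 on the female side (median -0.03), and 4 and 5 without female replicate 1. With all samples 25.5% of the list was called, beside 5.67% over all autosomal genes. Next to Cd36, the male side included the peroxisomal enzymes Acox2 and Acox3, the carnitine octanoyltransferase Crot, the fatty acid transporter Slc27a2 and the ketone enzyme Bdh1. On the female side, Acsl1, the long-chain acyl-CoA synthetase, had 131.5, 160.2 and 159.5 CPM in males and 393.4, 463.6 and 482.7 CPM in females (-1.57 ± 0.14 SE, adjusted p = 8.82e-05). Acaa2, the mitochondrial thiolase, had 61.30, 38.35 and 71.06 CPM in males and 271.7, 349.6 and 288.0 CPM in females (-2.41 ± 0.25 SE, adjusted p = 0.000202). Both were without overlap, and Hadhb, Acsl3, Fabp1 and Fabp3 completed that side. Without female replicate 1, Acox2, Bdh1, Slc27a2 and Fabp1 did not pass (adjusted p = 0.0614, 0.121, 0.0828 and 0.0699), nor did Fabp1 without male replicate 3 (adjusted p = 0.106). Of 46 lipid synthesis and lipoprotein genes, 3 were higher in males and 6 in females (median -0.09), 19.6% beside 5.67% over all autosomal genes. They included Me1, Mogat1 and Soat1 in males and Scd1, Apob, Apoe, Elovl2 and Elovl6 in females, of which Soat1 and Elovl2 did not pass without female replicate 1 (adjusted p = 0.103 and 0.0673). Apoe had 31.80, 31.14 and 37.44 CPM in males and 126.1, 97.40 and 154.2 CPM in females (-1.91 ± 0.18 SE, adjusted p = 0.000144). Of 46 genes of the citric acid cycle and respiratory chain, 0 were higher in males and 2, Cox7a1 and Cox5b, higher in females (median -0.24). This was 4.3% together, beside 5.67% over all autosomal genes. Neither gene passed without female replicate 1 (adjusted p = 0.0765 and 0.122), nor did Cox5b without male replicate 3 (adjusted p = 0.102).

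Amino acid breakdown and amine metabolism leaned to females. Of 41 genes of ammonia and amino acid breakdown, 3 were higher in males and 7 in females (median -0.22). Called genes were 24.4% of this list, beside 5.67% over all autosomal genes. Gldc, the glycine decarboxylase, had 134.8, 147.5 and 218.9 CPM in males and 692.7, 690.1 and 626.8 CPM in females (-2.0 ± 0.24 SE, adjusted p = 0.000556). Prodh2, the hydroxyproline dehydrogenase, had 18.18, 21.88 and 37.21 CPM in males and 179.3, 148.0 and 137.4 CPM in females (-2.59 ± 0.26 SE, adjusted p = 0.000194). Shmt1 and Gcsh of the glycine pathway, Glul, the glutamine synthetase, and Kynu were also on the female side, and Kyat1, Ftcd and Gpt were higher in males. Glul and Gpt did not pass without female replicate 1 (adjusted p = 0.106 and 0.104). Of 33 polyamine, arginine and amine genes, 1 was higher in males and 7 in females (median -0.06), 24.2% beside the same 5.67%.

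The single male-higher gene of that list was Odc1, the ornithine decarboxylase, at 3142, 2959 and 2528 CPM in males against 679.3, 622.5 and 720.0 CPM in females. Oat, the mitochondrial ornithine aminotransferase that uses the same substrate, had 95.41, 71.68 and 155.4 CPM in males and 591.8, 626.0 and 545.8 CPM in females (-2.45 ± 0.30 SE, adjusted p = 0.000546). The 2 enzymes thus differed in opposite directions, both without overlap. Hdc, the histidine decarboxylase, and Hnmt, which methylates histamine, were both higher in females (-6.43 ± 0.84 SE, adjusted p = 0.000947, and -0.83 ± 0.16 SE, adjusted p = 0.0111), and the mast cell protease and tryptase markers Cma1, Mcpt4, Tpsab1 and Tpsb2 had no read in any sham tubule library. Of 30 methyl and betaine genes, Csad and Cbs of the taurine pathway were higher in males and Bhmt, the betaine-homocysteine methyltransferase, in females (median 0.13). These calls made up 10.0% of the list, beside 5.67% over all autosomal genes. Bhmt had 3.203, 4.095 and 2.882 CPM in males and 105.7, 88.44 and 95.19 CPM in females, without overlap.

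In the remaining lists 0 to 12.5% of members were called, beside 5.67% over all autosomal genes. The endocytosis list gave 1 higher in males and 2 in females of 24, among them Gc, the vitamin D-binding protein, with 11.87, 7.594 and 12.13 CPM in males and 176.1, 151.0 and 215.7 CPM in females (-4.10 ± 0.69 SE, adjusted p = 0.00489). The renin-angiotensin and kallikrein list gave 3 of 28 higher in males and 0 in females, which were Mas1, Ace and Anpep, where Ace did not pass without female replicate 1 (adjusted p = 0.106) and Anpep without male replicate 3 (adjusted p = 0.055). Of 30 genes of metal, iron and NRF2 handling, Slc30a1 was higher in males and Slc39a5 and Gpx3 in females, and Slc30a1 did not pass without female replicate 1 or without male replicate 3 (adjusted p = 0.0838 and 0.0797). Among 26 injury genes, Spp1, which encodes osteopontin, was the only call, with 310.5, 176.5 and 217.7 CPM in males and 1284, 1364 and 1095 CPM in females (-2.41 ± 0.23 SE, adjusted p = 0.000122). Havcr1, the injury marker KIM-1, stayed at or under 5.186 CPM in all 6 samples (adjusted p = 0.434). No nephron transcription factor of 20 was called by edgeR with all samples, and 2 were without male replicate 3.

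Genes that respond to tissue dissociation had a median log2 change of 1.2 over 28 members, above that of every other function list. Of the members, 2 were called higher in males and 0 in females, 7.1% together beside 5.67% over all autosomal genes. Without male replicate 3 the calls rose to 15 and 0. The heat shock gene Hspa1b had 190.0, 108.1 and 56.30 CPM in males and 34.13, 23.10 and 32.99 CPM in females (1.97 ± 0.40 SE, adjusted p = 0.0131). The males differed widely, with replicate 1 the highest and replicate 3 the lowest, and the part of handling in the other differences was not tested. The clock list gave 1 of 20 higher in males (5.0%, beside 5.67% over all autosomal genes). It was Nr1d1, which did not pass without female replicate 1 (adjusted p = 0.0725).

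**Figure D4:**
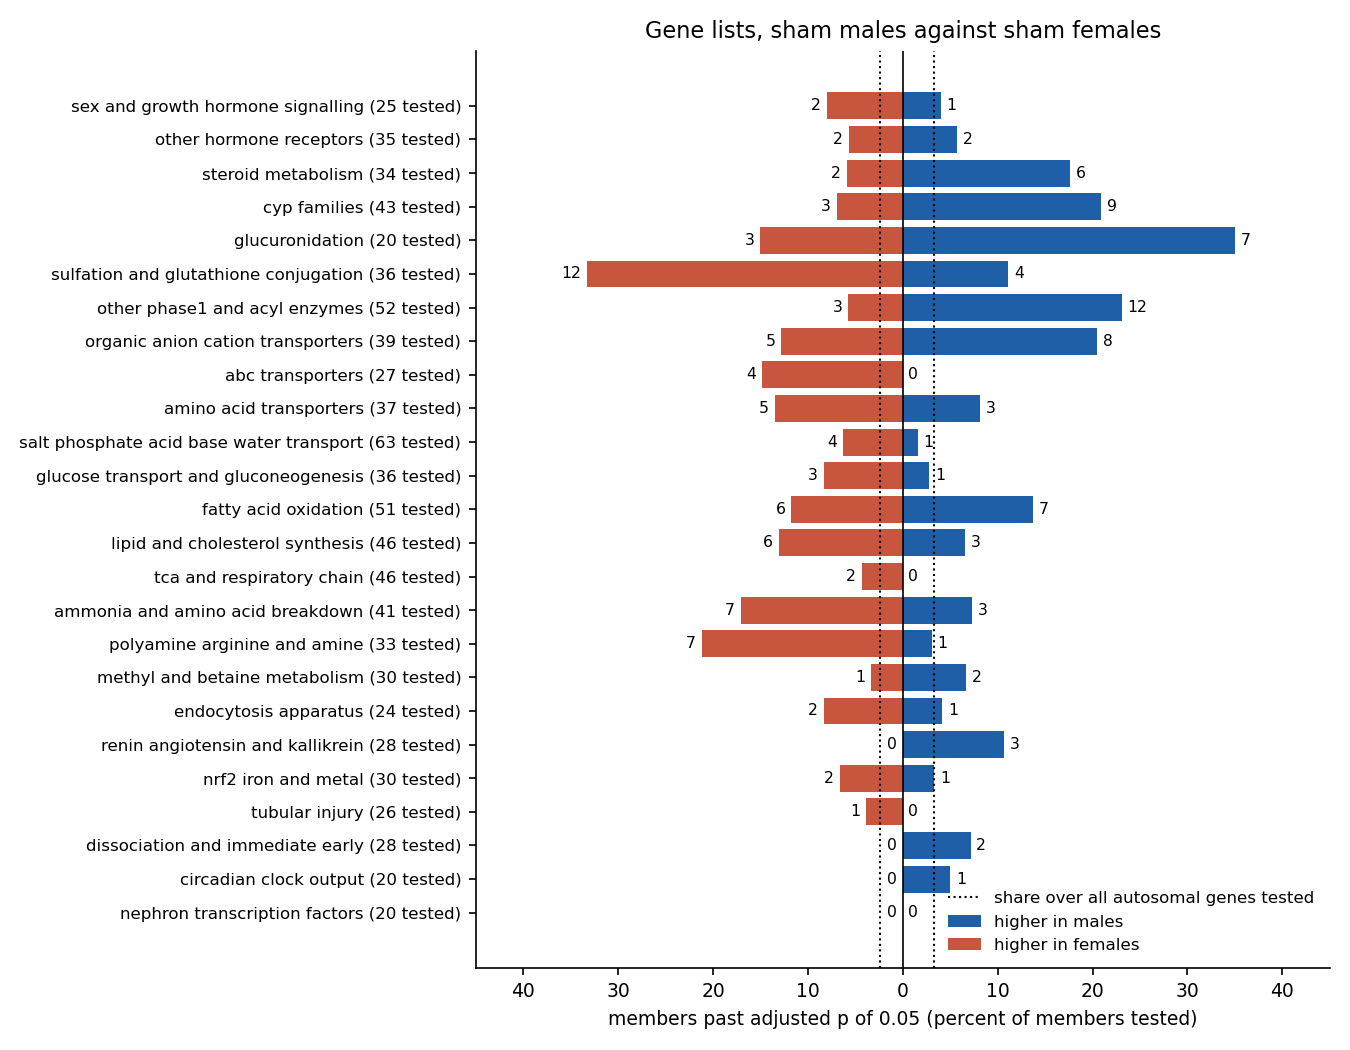
Percent of tested members called higher in females (red, to the left) and higher in males (blue, to the right) for the 25 function lists, with the number of genes beside each bar and dotted lines at 2.43 and 3.24%, the shares over all autosomal genes tested. Glucuronidation and other oxidative enzymes reach furthest to the male side and sulfation and glutathione conjugation to the female side.

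The injured tubules, which share no sample with the sham comparison, were used to see whether the sham differences were there as well. Both contrasts came from the same fit with a shared estimate of the spread, so their calls are not independent. In the injured tubules 23.2% of autosomal genes were called between the sexes, 12.9% higher in males and 10.4% higher in females. Of the 575 genes higher in sham males, 499 had a positive log2 change in injured tubules and 316 were called higher in injured males. Of the 431 higher in sham females, 378 had a negative change and 272 were called, while 11 of all these genes were called in opposite directions in sham and injured tubules. Their medians in injured tubules were 0.80 and -1.01, beside -0.05 over all autosomal genes. Without injured male replicate 3, an alternative chosen after seeing the data, the counts were 485 and 348 on the male side and 376 and 302 on the female side. Injured female replicate 3 had 1.479 CPM of Ddx3y and 5.51 CPM of Cyp2j13. Replicates 1 and 2 had 0.0204 and 0.0220 CPM of Ddx3y and 0.488 and 0.242 CPM of Cyp2j13. Uty was highest in replicate 2 instead (0.631, 2.885 and 2.594 CPM in injured females 1 to 3). The shared counts were not taken without injured female replicate 3. The change of Kap was like that in sham (4.70 ± 0.75 SE, adjusted p = 0.0021), as did Bhmt (-4.93 ± 0.29 SE, adjusted p = 1.13e-05) and Prlr (-4.33 ± 0.66 SE, adjusted p = 0.0018).

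The test of the difference itself, injured minus sham, passed for 153 genes (0.862%, with 0.383% moving towards males and 0.479% towards females), of which 55 were called in the sham contrast, 33 of them higher in sham males. Spp1 lost its excess in females, with 2278, 2762 and 3639 CPM in injured males and 1817, 1877 and 1776 CPM in injured females (interaction 3.08 ± 0.31 SE, adjusted p = 0.00328). Without injured male replicate 3, its change in injured tubules was 0.47 ± 0.20 SE and did not pass (adjusted p = 0.0811). Gsta2 narrowed to 110.9, 157.6 and 122.6 CPM in injured males and 230.8, 219.7 and 323.2 CPM in injured females (interaction 3.24 ± 0.32 SE, adjusted p = 0.00328). Papss1 came to 110.1 to 121.3 CPM in injured males and 121.4 to 126.7 CPM in injured females (interaction -1.32 ± 0.17 SE, adjusted p = 0.00676). Hsd3b4 widened, with 34.51, 30.40 and 42.50 CPM in injured males and 221.0, 244.8 and 191.2 CPM in injured females (interaction -1.59 ± 0.22 SE, adjusted p = 0.0138). Esr1 stood at 3.973 to 8.712 CPM in injured males and 5.168 to 6.540 CPM in injured females, with overlap (interaction -2.09 ± 0.37 SE, adjusted p = 0.0331). The interaction rested on its settings: a distal marker score as a covariate left 0 calls in edgeR, with 3232 genes at an unadjusted p under 0.05, although the changes stayed near their size (3.53 for Spp1, 3.17 for Gsta2, -1.33 for Papss1, -1.56 for Hsd3b4 and -2.36 for Esr1), and the fit without injured male replicate 3 gave 5712.

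**Figure D5:**
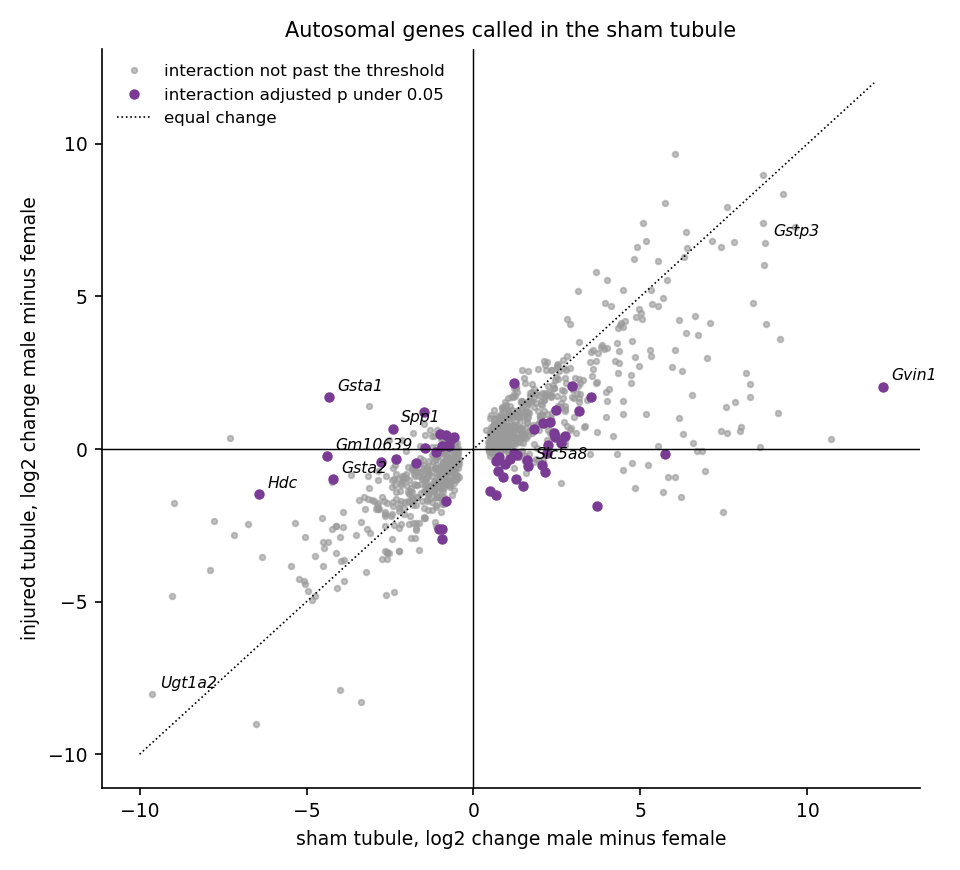
Log2 change, male minus female, of the 1006 genes called in sham tubules (horizontal) against the same change in injured tubules (vertical), with the line of equal change and the 55 genes with a called interaction in purple. Most genes lie in the quadrants of equal sign, and Spp1 and Gsta1 lie above 0 in injured tubules only.

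In the sham endothelial isolates, 3 males against 2 females, 80 of 19246 autosomal genes were called (0.416%, with 0.265% higher in males and 0.151% in females). Of the 570 genes higher in male tubules and tested there, 497 had a positive change and 46 were called higher in males. Of 431 on the female side, 370 had a negative change and 26 were called, with 0 called in the opposite direction. The labels give the same numbers to both isolations (5, 6 and 9 in sham males, 10 and 11 in sham females), so tubule and endothelial libraries may come from the same mice, and these counts are not independent of the tubule result. Tubule transcripts reached these isolates, since Kap stood at 8071 to 18360 CPM in males and 31.90 to 60.11 CPM in females, and their part in the shared direction was not tested. The tubule and endothelial differences were called unlike in 2 genes of 20497 (0.00976%, both larger in tubules), Chst11 (2.50 ± 0.34 SE, adjusted p = 0.013) and Gvin1 (11.87 ± 1.63 SE, adjusted p = 0.0135). With the label number as a block, an alternative chosen after seeing the data, Chst11 passed (2.42 ± 0.28 SE, adjusted p = 0.0339) and Gvin1 did not (11.66 ± 1.76 SE, adjusted p = 0.29).

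The authors' deposited table of the same comparison called 1683 of 17742 autosomal genes at an adjusted p under 0.05. Of the 1006 genes called here, 869 were called in the authors' deposited table as well, and 0 in the opposite direction.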

How the data were processed

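Poly-A RNA libraries (20 ng input, RQN above 7, per the labels) were run on a NextSeq, and the authors obtained transcript abundances on GRCm38 using Salmon 0.13.1, per the submitters' processing notes. The deposited files give, per transcript, the estimated count (expected count, not normalized), the TPM and the effective length (a signal of length, not of expression). The authors' deposited comparison table, made with DESeq2 (version not stated) per the submitters' processing notes, gives a log2 fold change and p-values per gene. The files list 136202 transcripts of 53392 genes, of which 53355 were found in GENCODE M21, the source of coordinates.

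Here the transcripts' estimated counts were added up for each gene, then rounded to whole reads. The 12 tubule samples were fitted together with edgeR 4.0.16 in R 4.3.3 (TMM, filterByExpr with minimum count 10 and minimum total 15, 1 mean per group, quasi-likelihood F-test, common BCV 0.392, 8 residual degrees of freedom), because shared groups give 1 estimate of the spread. Benjamini-Hochberg adjustment ran over the whole table of 18369 genes, and autosomal genes were then counted. Each SE was taken as the absolute log2 change divided by the root of F. CPM are scaled by TMM library size, and TPM is used to compare genes and, for Abcb1a, the sexes. The 11 endothelial samples, and all 23 together, were fitted in the same way.

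Named genes are the 15 largest called changes per direction (protein coding, at least 5 CPM, no overlap), up to 4 called members per function list by adjusted p, 27 fixed genes, and up to 6 genes per direction of each called interaction. The lack of overlap in the 15 largest changes was set by this rule and is no result. Genes named outside this rule are further called members of the lists and paralog clusters, and Stat5a, Stat5b, Slco1a1, Slc22a19 and Slc22a26, chosen after their values were seen. The members and the 25 function and 23 marker lists were chosen with earlier results of these data known. Alternatives were RLE factors, no filter, DESeq2 1.42.0, length offsets, only the groups compared, a replicate block, the label number as a block, a distal marker covariate, either library of male replicate 3 alone, CT010467.1 taken out, adjustment over autosomal genes, and leaving out samples. On simulated data of this comparison (17806 genes in the fit), 38% of 100 genes changed 2-fold and 95% of 100 changed 4-fold were recovered, with 5 unchanged genes among 138 calls. The changed genes were drawn from those with a mean of at least 5 CPM, and no simulated library was made to stand apart. Recovery of lower genes, or with libraries like female replicate 1, was not measured. Floors cover counting error only, while SEs include the spread between samples. Sex chromosome genes were used only to check the labels. Some called members are counted in their lists but not reported here by name.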

Additional observations from a re-analysis of the deposited data

Results flagged for a closer look

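These genes, called in sham tubules, also had a sex difference that itself changed with injury or isolation, by a test of the difference (edgeR quasi-likelihood, adjusted over all genes). Values are injured minus sham differences of the male minus female log2 change. The genes higher in sham females moved towards males in Gsta1 (6.01 ± 1.02 SE, adjusted p = 0.0279), Hdc (4.95 ± 1.0 SE, 0.0469), Gm10639 (4.16 ± 0.64 SE, 0.0207), Gsta2 (3.24), Spp1 (3.08), Steap1 (2.71 ± 0.32 SE, 0.0047), Gsto1 (2.35 ± 0.42 SE, 0.0337), Slc3a2 (1.04 ± 0.18 SE, 0.0332) and Ctsb (1.01 ± 0.18 SE, 0.0321), while Hsd3b4 (-1.59) moved further to females. In Gsta1, injured male replicate 2 stood at 156.4 CPM against 17.90 and 18.27 CPM in the other injured males.

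The genes higher in sham males moved towards females in Gvin1 (-10.2 ± 1.74 SE, adjusted p = 0.0339), Cdk1 (-5.88 ± 1.05 SE, 0.0332), Slc26a7 (-5.58 ± 1.03 SE, 0.0339), Pdgfd (-2.9 ± 0.52 SE, 0.0332), Aqp3 (-2.68 ± 0.44 SE, 0.0264), Cbx8 (-2.58 ± 0.49 SE, 0.0357), Slc5a8 (-2.17 ± 0.31 SE, 0.0161), Esr1 (-2.09), Nudt19 (-1.87 ± 0.33 SE, 0.0331), Papss1 (-1.32), Odc1 (-1.24 ± 0.22 SE, 0.0332) and Slco3a1 (-0.88 ± 0.17 SE, 0.0439). Slc26a7 and Aqp3 are genes of the collecting duct. Markers of that segment varied between the sham males, and the principal cell sum was higher in every sham male, as given above. The fitted change of Gvin1 rests on females with no read and is no bound. With the distal marker covariate none of these tests passed (adjusted p of 0.093 to 0.361), while the changes were 7.32 for Gsta1, 6.13 for Hdc, 3.53 for Spp1, 3.17 for Gsta2, -2.37 for Slc26a7 and -1.19 for Aqp3. Between sham tubule and endothelial isolates, the sex difference was larger in tubules for Chst11 (2.5) and Gvin1 (11.87).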

How the results depend on the processing

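The calls in sham tubules (575 higher in males, 431 in females) changed in number with several settings. DESeq2 called 1086 and 777, the fit of only the groups compared 878 and 752, the shared fit without injured male replicate 3 1368 and 1151, and the distal marker covariate 353 and 255, while leaving out each sample gave 315 to 668 and 190 to 407. Of the 1006 genes, DESeq2 shared 1000, the distal covariate 575, the fit without female replicate 1 552 and that without male replicate 3 785, none with the opposite sign. With length offsets 668 were shared and 5 had the opposite sign; Abcb1a changed from -2.36 to 0.25 (adjusted p = 0.942). Replicate numbers did not pair the samples (correlations of deviations of -0.000192, -0.0497 and -0.0429, against -0.0615 to 0.105 between unlike numbers), and the replicate block gave 489 and 362. Injured tubules (2283 and 1839) gave 1150 in females with length offsets, 915 and 735 with only the groups compared, 1313 and 866 with the distal covariate, and 1006 to 3847 and 769 to 4401 when leaving out samples. The interaction with injury (153) gave 386 without the filter, 1278 in DESeq2, 64 with length offsets, 53 with the replicate block, 0 with the distal covariate (3232 at an unadjusted p under 0.05), and 19 to 5712 when leaving out samples; only the groups compared was not run there, since all tubule groups are compared. Endothelial isolates (51 and 29) gave 149 and 91 without the filter, 235 and 130 in DESeq2, 17 in females with length offsets, 30 in males with only the groups compared, 11 in females with the replicate block, and 13 to 147 and 5 to 60 when leaving out samples. The tubule against endothelial test (2) gave 7, 97, 0 and 1 without the filter, in DESeq2, with only the groups compared (1536 at an unadjusted p under 0.05) and with the replicate block, 1 with the label number as a block (1169 at an unadjusted p under 0.05), and 0 to 12 when leaving out samples (1450 and 1326 at an unadjusted p under 0.05 where it gave 0, by edgeR). The causes were not tested. Among named genes, 2133 values kept their side of the threshold, 137 fell below it and 10 rose past it. A further 1 changed sign while past the threshold in at least 1 of the fits compared. Sign changes of values past the threshold in neither fit are counted among the 2133. With 3 samples a group, depth and spread limit small changes, so a gene that did not pass is not shown to be equal.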
